A study of Homo sapiens with 10 samples.

Results

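The transcripts described here are small nucleolar RNA (snoRNA) host genes and related noncoding transcripts of HEK293T cells, a human line derived from embryonic kidney, after overexpression of the kinases BRSK1 or BRSK2. The members are all genes whose symbol is SNHG and a number, together with GAS5, ZFAS1, DANCR, EPB41L4A-AS1, TAF1D, MIR17HG and CYTOR, which gave 29 of the 58676 genes counted. Of these, 22 carry an SNHG symbol, and CYTOR was found under an older symbol, LINC00152. Bulk RNA was sequenced from 10 libraries: 3 with BRSK2 and 3 with BRSK1 overexpressed for 24 h, both AMPK-related serine/threonine kinases, 2 with the red fluorescent protein hcRED overexpressed for 24 h, and 2 mock samples (Mock). The labels name no vector, promoter or clone, and do not say that samples came from separate cultures. The spread behind each p-value is thus that of these libraries, and part or all of it may be technical.

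A snoRNA host gene is transcribed as a long precursor whose introns carry snoRNAs, the guides that direct chemical modification of ribosomal and other RNAs. The snoRNAs are released as the introns are processed, and the spliced exons remain as a separate RNA that often has no long reading frame. Many of these spliced RNAs are read by ribosomes for a short stretch and then degraded by nonsense-mediated decay (NMD), so that their level depends on both synthesis and decay. Several, GAS5 and SNHG1 among them, are known as members of the 5' terminal oligopyrimidine (TOP) class, whose RNAs start with a C followed by a run of pyrimidines and are tied to the growth state of the cell.

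Of the 29 members, 26 had at least 1 snoRNA or scaRNA gene lying inside them on the same strand in the deposited gene table. SNHG1 held the box C/D snoRNAs SNORD22 and SNORD25 to SNORD28 among its 7, SNHG16 held SNORD1A, SNORD1B and SNORD1C, SNHG3 held SNORA73A and SNORA73B, DANCR held SNORA26 and EPB41L4A-AS1 held SNORA13. TAF1D, a subunit of the selectivity factor of RNA polymerase I, was the protein-coding member and held 8. No snoRNA gene of the table lay inside GAS5, CYTOR or MIR17HG, the last of which held 6 microRNA genes. This describes the entries of that gene table, and does not show that GAS5 or another transcript carries no snoRNA. The snoRNAs themselves were hardly counted: of 155 such genes inside members, 14 had a mean of at least 1 count per library, led by SNORA71C (332 counts over all 10 libraries) and SNORA71B (310), both in SNHG17, and SNORA73B (167). The values below are thus those of the spliced or unspliced host transcripts, not of the snoRNAs they release.

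The promoters of the members the results turn on are shown because the TOP class is read from the first transcribed bases. Each line runs 5' to 3' from 45 bases before the start to 25 bases from it (RefSeq, GRCh38.p14). Capitals mark an unbroken run of pyrimidines from the first transcribed base, where there is one, and a TATA between 40 and 19 bases before the start.
SNHG7 (chr9:136728160-136728229, minus strand): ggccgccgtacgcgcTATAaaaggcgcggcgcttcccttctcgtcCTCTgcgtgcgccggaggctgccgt
SNHG12 (chr1:28581849-28581918, minus strand): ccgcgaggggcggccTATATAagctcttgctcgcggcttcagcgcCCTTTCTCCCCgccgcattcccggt
SNHG1 (chr11:62855861-62855930, minus strand): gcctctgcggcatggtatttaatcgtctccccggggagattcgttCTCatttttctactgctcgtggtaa
GAS5 (chr1:173869021-173869090, minus strand): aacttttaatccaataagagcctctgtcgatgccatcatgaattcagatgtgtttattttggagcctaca
TAF1D (chr11:93741471-93741540, minus strand): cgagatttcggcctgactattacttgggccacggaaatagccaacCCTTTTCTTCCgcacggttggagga
SNHG16 (chr17:76557719-76557788, plus strand): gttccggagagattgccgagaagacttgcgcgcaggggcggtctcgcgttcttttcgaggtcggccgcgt
MIR17HG (chr13:91347642-91347711, plus strand): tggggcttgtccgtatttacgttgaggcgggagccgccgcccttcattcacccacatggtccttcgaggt
SNHG3 (chr1:28505898-28505967, plus strand): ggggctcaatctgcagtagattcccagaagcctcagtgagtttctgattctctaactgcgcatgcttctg
EPB41L4A-AS1 (chr5:112160481-112160550, plus strand): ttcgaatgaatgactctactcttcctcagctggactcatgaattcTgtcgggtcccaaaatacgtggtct
For comparison, the 4 members shown next had no call in a kinase comparison, with or without BRSK2 replicate 1, and were picked because they open with a C and at least 3 further pyrimidines, which the other 8 matched members without a call do not.
SNHG4 (chr5:139274056-139274125, plus strand): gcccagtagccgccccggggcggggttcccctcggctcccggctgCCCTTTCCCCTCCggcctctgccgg
SNHG5 (chr6:85678709-85678778, minus strand): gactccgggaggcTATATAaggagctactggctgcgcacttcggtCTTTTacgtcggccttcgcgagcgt
SNHG19 (chr16:2155334-2155403, minus strand): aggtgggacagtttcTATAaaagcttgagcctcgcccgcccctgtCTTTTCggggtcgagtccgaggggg
ZFAS1 (chr20:49278597-49278666, plus strand): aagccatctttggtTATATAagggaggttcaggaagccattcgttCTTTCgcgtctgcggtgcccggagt

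RefSeq gave a promoter for 24 of the 29 members. SNHG6, SNHG9, SNHG15, SNHG23 and SNHG25 were not matched. A C followed by at least 3 further pyrimidines stood at the start of 8 of the 24 (SNHG4, SNHG5, SNHG7, SNHG12, SNHG18, SNHG19, TAF1D and ZFAS1), against 5.45% of all 35116 promoters in the table. TATA stood in the window of 6 of the 24 (SNHG5, SNHG7, SNHG8, SNHG12, SNHG19 and ZFAS1), against 6.05% of all. Of 2 other motifs searched in the 300 bases of each promoter, CACGTG was in that of SNHG7 (7.26% of all promoters) and TGACGTCA in none of the 24 (1.85% of all). These motifs read the same on both strands. Their matches may overlap each other, and TATA was chosen after the sequences were seen. The opening was present in 3 of the 9 members called in a kinase comparison with or without BRSK2 replicate 1, and in 4 of the 12 matched members that were tested and not called. GAS5 and SNHG1, named above as known TOP members, count here as lacking it, with 0 and 3 pyrimidines from the RefSeq start. The counts thus do not give TOP membership. The RefSeq first base lay within 10 bases of the 5' end of the gene in the deposited table for 11 of the 24, and within 100 for 17. It lay 133 bases from it for MIR17HG, 163 for GAS5, 464 for ZFAS1, 1110 for SNHG12, 1927 for SNHG20, 42896 for TAF1D and 154975 for SNHG14. SNHG12 and TAF1D are 2 of the 3 called members counted with the opening, and for all 7 the first bases depend on which start is taken. The same holds at smaller distances, as for the printed members SNHG1 (29 bases), SNHG3 (37), SNHG16 (2), SNHG4 (1) and SNHG5 (3). A match is a description of these letters, and a missing match says nothing of a factor.

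Total counts ran from 16516116 to 24304302 per library, and the members took between 0.0622% and 0.0924% of them. The cells carried the kidney and embryonic genes of this line (PAX2 at 2.43 to 5.72 CPM, read counts scaled to library size and TMM, the trimmed mean of M-values, and EYA1 at 7.53 to 11.0), while PTPRC of leukocytes, TYR of melanocytes and HBG1 of erythroid cells were at 0 in every library. The 8 markers of other cell types summed to 1.78 to 8.21 CPM in all libraries but BRSK1 replicate 1, where they summed to 33.9, 29.2 of it KRT5 of stratified epithelium. The BRSK1 values of the members called for BRSK1 in either fit are therefore also given without that library. In bulk RNA, a change in RNA per cell and a change in the share of cells that carry it cannot be told apart.

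Testing was limited to genes with enough counts, which left 24 of the 29 members and 16936 genes in all. SNHG14, the host of the imprinted SNORD115 and SNORD116 clusters, and SNHG18, SNHG22, SNHG23 and SNHG25 were not tested, with 0 to 4 counts in any library. SNHG9 (3 to 29 counts), CYTOR (12 to 28) and SNHG21 (16 to 33) passed at low counts. Levels are compared between genes only as CPM per kilobase of the length in the deposited table. On that scale, as the mean over all 10 libraries, SNHG5 was highest (43.2), followed by SNHG19 (33.0), DANCR (29.7), GAS5 (28.0), SNHG6 (21.5) and SNHG8 (20.1), and SNHG21 (1.12), SNHG9 (1.06) and CYTOR (0.30) were lowest among those tested.

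SNHG7, SNHG1, GAS5, SNHG12 and TAF1D were higher in most BRSK2 and BRSK1 libraries than in the controls, but BRSK2 replicate 1 stood with the controls. Because of that library, BRSK2 is compared with the controls (the average of the hcRED group mean and the Mock group mean) both with it and without it. It was chosen because it stood with the controls in these members, so their p-values without it depend in part on that choice. With all 10 libraries, 0 of the 24 tested members reached an adjusted p under 0.05 in edgeR (quasi-likelihood F test, Benjamini-Hochberg over all tested genes), against 4.77% of all tested genes called higher. Of the 24, 6 had an unadjusted p under 0.05, all higher. DESeq2 called 1 (EPB41L4A-AS1, beside 8.07% of all genes in either direction) and limma-voom 1 (SNHG1, beside 6.36%). With the replicate number as a block, 6 were called (12.7% of all genes). Without BRSK2 replicate 1, 8 of 24 were called higher and 0 lower: SNHG7, SNHG1, SNHG12, GAS5, EPB41L4A-AS1, TAF1D, SNHG3 and SNHG16. The share of all genes called higher was then 6.76%. In that fit 13 of the 24 had an unadjusted p under 0.05. No share of all genes was counted at that level, so the unadjusted counts cannot be read as particular to the members. Leaving out BRSK2 replicate 2 or 3 instead of replicate 1 gave 0 called members for BRSK2 (3.81% and 2.05% of all genes). For BRSK1, MIR17HG and SNHG16 rose with all libraries (2 of 24, against 3.77% of all genes called higher), and 7 of 24 did so without BRSK2 replicate 1 (5.57% of all): GAS5, SNHG1, SNHG7, SNHG12 and TAF1D in addition. The BRSK1 fold changes of these 7 moved little between the fits, and their SEs, which share 1 estimate of spread over all groups, were smaller in the second.

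In the sentences on single members below, values follow the order of the replicate numbers: 1, 2 and 3 for each kinase, 1 and 3 for hcRED, and 2 and 3 for Mock. SNHG1 (ENSG00000255717; hg38 chromosome 11, minus strand, 62851988 to 62855914; noncoding), a host of box C/D snoRNAs, stood at 47.9, 78.6 and 80.0 CPM with BRSK2, 58.5, 78.3 and 73.8 with BRSK1, 45.9 and 53.1 with hcRED, and 44.8 and 36.0 in Mock. All 3 BRSK1 libraries and BRSK2 replicates 2 and 3 lay above all 4 controls, whereas BRSK2 replicate 1 lay among them. For BRSK2 the log2 fold change against the controls was 0.62 ± 0.21 (SE), with an adjusted p of 0.141 in edgeR, and for BRSK1 0.65 ± 0.21, with an adjusted p of 0.132. Leaving out BRSK2 replicate 1 gave 0.83 ± 0.11 (1.77-fold, adjusted p = 0.00059) and 0.65 ± 0.10 (adjusted p = 0.0019). The authors' deposited table lists SNHG1 as higher for both kinases, with log2 fold changes of 0.60 for BRSK2 and 0.65 for BRSK1 and adjusted p-values of 0.0351 and 0.0057.

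SNHG7 (ENSG00000233016; hg38 chromosome 9, minus strand, 136721366 to 136728184; annotated as antisense), the host of the SNORA17 snoRNAs, had the largest fitted increases without BRSK2 replicate 1 among the members. It stood at 36.7, 75.0 and 72.4 CPM with BRSK2, 55.9, 66.8 and 67.3 with BRSK1, 40.2 and 42.3 with hcRED, and 43.1 and 33.1 in Mock. The 5 high libraries were well apart from the other 5, among which BRSK2 replicate 1 was the second lowest. BRSK2 changed it by 0.63 ± 0.26 on the log2 scale (adjusted p = 0.22), BRSK1 by 0.68 ± 0.26 (adjusted p = 0.198). Without that library the values were 0.89 ± 0.09 (1.86-fold, adjusted p = 1.12e-06) and 0.67 ± 0.08 (adjusted p = 2.68e-05), edgeR's quasi-likelihood test.

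GAS5 (ENSG00000234741), the growth arrest-specific transcript that NMD is known to degrade in growing cells, stood at 70.1, 127 and 131 CPM with BRSK2, 106 (replicate 1), 126 and 125 with BRSK1, 81.1 and 93.2 with hcRED, and 88.7 and 68.0 in Mock. BRSK2 replicate 1 was again within the range of the controls and the other 5 kinase libraries above it. With BRSK2 its log2 fold change was 0.40 ± 0.24 (adjusted p = 0.382) and without replicate 1 0.64 ± 0.10 (adjusted p = 0.0016). With BRSK1 it was 0.53 ± 0.23 (adjusted p = 0.259), and 0.53 ± 0.09 (adjusted p = 0.0033) in the fit without that BRSK2 library.

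TAF1D (ENSG00000166012; hg38 chromosome 11, minus strand, 93729948 to 93784391), the protein-coding host, stood at 46.2, 68.9 and 69.5 CPM with BRSK2, 54.6, 67.8 and 62.7 with BRSK1, 51.4 and 51.6 with hcRED, and 47.6 and 40.6 in Mock. Every BRSK1 library was above every control, the nearest pair being 54.6 and 51.6 CPM. Its change was 0.37 ± 0.14 on the log2 scale with either kinase, with adjusted p-values of 0.141 (BRSK2) and 0.142 (BRSK1). In the fit lacking BRSK2 replicate 1 BRSK2 gave 0.54 ± 0.08 (adjusted p = 8.37e-05), and BRSK1 gave 0.37 ± 0.07 (adjusted p = 0.0016).

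SNHG12 (ENSG00000197989; hg38 chromosome 1, minus strand, 28578538 to 28582983; annotated as antisense), the host of SNORD99 and SNORA44, stood apart between the control groups too, with both hcRED libraries above both Mock libraries. It stood at 7.93, 15.1 and 15.4 CPM with BRSK2, 9.84, 16.3 and 14.2 with BRSK1, 11.1 and 12.4 with hcRED, and 7.61 and 6.53 in Mock. Replicate 1 of both kinases was below both hcRED libraries. The change was 0.49 ± 0.24 with BRSK2 (adjusted p = 0.262) and 0.74 ± 0.15 without its replicate 1 (adjusted p = 0.0022), beside 0.56 ± 0.23 with BRSK1 (adjusted p = 0.196), or 0.56 ± 0.13 (adjusted p = 0.0091) in the fit without that BRSK2 library. Between hcRED and Mock it was 0.73 ± 0.32 (adjusted p = 0.548), and it passed in that comparison with no filter on low counts (adjusted p = 0.0171). It also passed there with the replicate number as a block (1.09 ± 0.18, adjusted p = 0.0011).

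**Figure D1:**
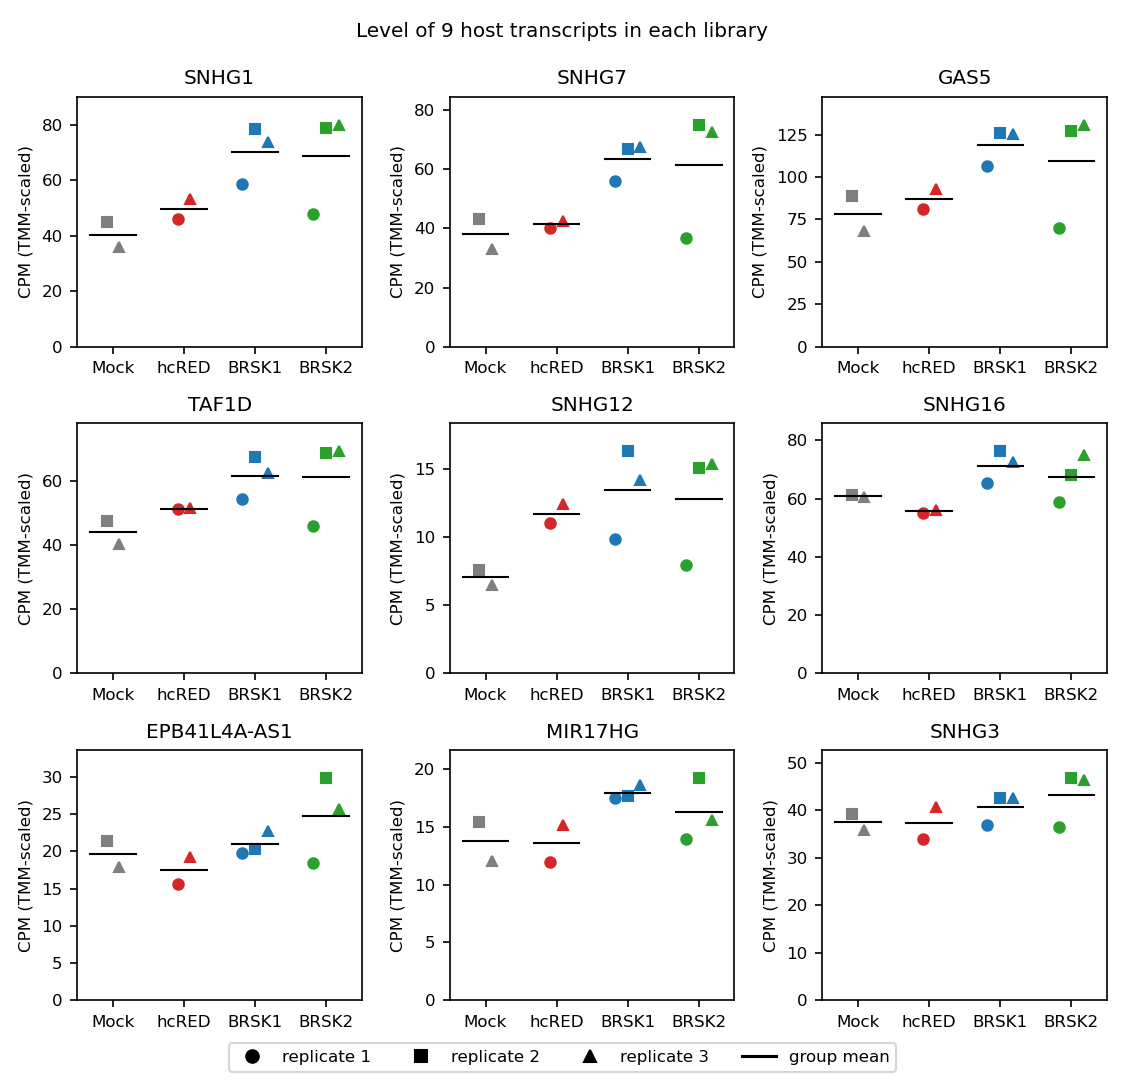
CPM (TMM-scaled, linear axes from 0) of 9 members in each of the 10 libraries, 1 panel a gene; symbols mark the replicate number, colours the group and black bars the group mean. In the panels of SNHG1, SNHG7, GAS5 and TAF1D, BRSK2 replicate 1 (circle) sits with the controls while the other 5 kinase libraries lie above them.

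SNHG16 (ENSG00000163597; hg38 chromosome 17, plus strand, 76557766 to 76565348), host of the SNORD1 snoRNAs, and MIR17HG rose with BRSK1. SNHG16 stood at 65.3, 76.2 and 72.4 CPM with BRSK1, 58.7, 68.2 and 75.0 with BRSK2, 55.2 and 56.2 with hcRED, and 61.2 and 60.5 in Mock. Its BRSK1 libraries did not overlap the controls, and its increase was 1.23-fold (log2 fold change 0.29 ± 0.08, adjusted p = 0.0222). With BRSK2 it was 0.21 ± 0.08 (adjusted p = 0.095), and 0.30 ± 0.07 (adjusted p = 0.0074) without replicate 1.

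MIR17HG (ENSG00000215417; hg38 chromosome 13, plus strand, 91347820 to 91354579) is the host of the miR-17-92 cluster, whose microRNAs are known to promote cell cycle entry and survival. It stood at 17.5, 17.6 and 18.6 CPM with BRSK1, 14.0, 19.3 and 15.6 with BRSK2, 12.0 and 15.2 with hcRED, and 15.4 and 12.1 in Mock. The BRSK1 libraries were close together and above all controls, while BRSK2 replicate 1 was below 2 of the controls. The increase was 1.31-fold with BRSK1 (0.39 ± 0.12, adjusted p = 0.0467) and the change with BRSK2 0.26 ± 0.12 (adjusted p = 0.206), or 0.36 ± 0.13 without its replicate 1 (adjusted p = 0.0589). These counts are of the host and not of the mature microRNAs, of which the main arm of each hairpin is shown here because they are what the host is known for (RefSeq, GRCh38.p14; capitals mark the seed, bases 2 to 8).
hsa-miR-17-5p: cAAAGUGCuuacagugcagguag
hsa-miR-18a-5p: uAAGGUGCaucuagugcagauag
hsa-miR-19a-3p: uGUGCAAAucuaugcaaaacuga
hsa-miR-20a-5p: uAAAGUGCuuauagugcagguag
hsa-miR-19b-3p: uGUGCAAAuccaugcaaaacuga
hsa-miR-92a-3p: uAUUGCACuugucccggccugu
Among these 6, miR-17-5p and miR-20a-5p share the seed AAAGUGC, miR-19a-3p and miR-19b-3p share GUGCAAA, and miR-18a-5p and miR-92a-3p each have their own.

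Neither BRSK1 call was firm across libraries. Both were lost without BRSK1 replicate 2, BRSK1 replicate 3, hcRED replicate 1 or Mock replicate 3, with 0 of 24 members called in each case. The share of all genes called in either direction, 6.43% with all libraries, was then 2.46%, 1.21%, 1.75% and 3.26%. Both were also lost against hcRED alone (0.785% of all genes) and Mock alone (6.69%). Over all alternatives the log2 fold change stayed between 0.23 and 0.36 for SNHG16 and between 0.31 and 0.48 for MIR17HG. Without BRSK1 replicate 1, the library with high KRT5, 2 members were called, SNHG16 (0.35 ± 0.08, adjusted p = 0.0167) and SNHG12 (0.74 ± 0.20, adjusted p = 0.0495), beside 5.21% of all genes. MIR17HG stood there at 0.41 ± 0.14 (adjusted p = 0.0802), SNHG1 at 0.77 ± 0.22 (adjusted p = 0.115), SNHG7 at 0.76 ± 0.30 (adjusted p = 0.243), GAS5 at 0.60 ± 0.28 (adjusted p = 0.302) and TAF1D at 0.45 ± 0.14 (adjusted p = 0.0887), and the median over members was 0.20. Without BRSK2 replicate 3 SNHG16 alone was called (5.82% of all genes), and without hcRED replicate 3 MIR17HG alone (3.66%). DESeq2 called 3 members for BRSK1 (MIR17HG, SNHG1 and SNHG16), beside 6.81% of all genes. Without robust estimation of the spread, 4 of 24 were called for BRSK1 (GAS5, SNHG1, SNHG16 and SNHG7, beside 3.5% of all genes called higher) and 2 for BRSK2 (SNHG1 and SNHG7, beside 4.3%). With limma-voom, 5 were called for BRSK1 (3.54% of all called higher) and 1 for BRSK2 (3.9%). The authors' deposited table for BRSK1 lists 6 members as higher among its 879 genes: SNHG7 (0.68), SNHG1 (0.65), GAS5 (0.54), MIR17HG (0.41), TAF1D (0.38) and SNHG16 (0.30).

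EPB41L4A-AS1 (ENSG00000224032; hg38 chromosome 5, plus strand, 112160526 to 112164276), host of SNORA13, and SNHG3 (ENSG00000242125; hg38 chromosome 1, plus strand, 28505980 to 28510892) stood higher in BRSK2 replicates 2 and 3 than in any control. EPB41L4A-AS1 stood at 18.5, 29.9 and 25.7 CPM with BRSK2, 19.8, 20.4 and 22.8 with BRSK1, 15.7 and 19.2 with hcRED, and 21.4 and 17.9 in Mock. Its BRSK1 libraries overlapped the controls. The change with BRSK2 was 0.42 ± 0.13 (adjusted p = 0.0627 in edgeR, 0.0378 in DESeq2), and 0.59 ± 0.11 without replicate 1 (adjusted p = 0.00062), beside 0.18 ± 0.13 with BRSK1 (adjusted p = 0.453). The difference between the kinases was 0.24 ± 0.14 (adjusted p = 0.517) with all libraries and 0.41 ± 0.11 (adjusted p = 0.125) without BRSK2 replicate 1, neither past the threshold.

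SNHG3 stood at 36.4, 46.8 and 46.5 CPM with BRSK2, 36.8, 42.6 and 42.5 with BRSK1, 33.9 and 40.7 with hcRED, and 39.2 and 35.8 in Mock. Replicate 1 of each kinase overlapped the controls. Its change with BRSK2 was 0.21 ± 0.09 (adjusted p = 0.171), and 0.32 ± 0.09 without replicate 1 (adjusted p = 0.014). SNHG3 lies within RCC1 on the same strand, and reads of the pair may be shared in the counting. SNHG7, SNHG12, SNHG16, GAS5, TAF1D and EPB41L4A-AS1 overlap genes of the other strand (FAM69B, TRNAU1AP, ST6GALNAC2, ZBTB37, MED17 and EPB41L4A, among others), and since the strand setting of the counting is not given, reads of such pairs cannot be told apart.

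SNHG5 and DANCR, high in CPM per kilobase, and ZFAS1 and CYTOR, low on that scale, did not follow one pattern. SNHG5, host of SNORD50B, stood at 88.4, 138 and 131 CPM with BRSK2, 109.9, 142 and 143 with BRSK1, 121 and 122 with hcRED, and 114 and 98.4 in Mock. BRSK2 replicate 1 was the lowest of all 10 libraries there, and the change was 0.07 ± 0.17 with BRSK2 (0.24 ± 0.10 without replicate 1, adjusted p = 0.124) and 0.21 ± 0.17 with BRSK1. DANCR, a transcript known for holding progenitor cells undifferentiated, stood at 62.7, 72.9 and 71.5 CPM with BRSK2, 61.0, 74.4 and 68.0 with BRSK1, 61.1 and 67.5 with hcRED, and 72.7 and 65.9 in Mock. Its values overlapped throughout (0.05 ± 0.08 and 0.02 ± 0.07). ZFAS1, host of the SNORD12 snoRNAs, stood at 3.78, 5.45 and 5.02 CPM with BRSK2, 3.69, 5.70 and 3.23 with BRSK1, 5.13 and 3.82 with hcRED, and 5.40 and 4.06 in Mock. The groups overlapped fully (0.05 ± 0.21 with BRSK2 and -0.13 ± 0.20 with BRSK1). CYTOR stood at 0.71, 1.08 and 0.76 CPM with BRSK2, 1.14, 1.11 and 1.16 with BRSK1, 1.27 and 1.12 with hcRED, and 1.26 and 0.69 in Mock. It gave no detectable change at this depth (-0.33 ± 0.36 and 0.07 ± 0.34), and it has a near-identical copy with which reads can be shared.

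SNHG4, host of SNORA74A, was the steadiest member, at 25.6 to 28.1 CPM in all 10 libraries, with a change of 0.03 ± 0.08 with BRSK2 and 0.07 ± 0.08 with BRSK1. It lies within MATR3 on the same strand. The other tested members, SNHG6, SNHG8, SNHG9, SNHG10, SNHG11, SNHG15, SNHG17, SNHG19, SNHG20 and SNHG21, were called in none of the comparisons of the kinases with the controls, with or without BRSK2 replicate 1. SNHG19 passed once, with BRSK2 when Mock replicate 2 was left out.

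Seen over all tested members, the median log2 fold change was 0.18 with BRSK2 and 0.14 with BRSK1, with 21 of 24 members above 0 in each, beside a median of 0.00 over all tested genes. When BRSK2 replicate 1 was left out, the median with BRSK2 was 0.28, with 23 of 24 above 0, and that with BRSK1 was again 0.14. Other single libraries moved these medians as well. The median with BRSK2 was 0.06 without BRSK2 replicate 2, 0.09 without BRSK2 replicate 3 and 0.09 without Mock replicate 3, and that with BRSK1 was 0.07 without Mock replicate 3 and 0.27 without Mock replicate 2. These contrasts share their 4 control libraries. Scaled by library totals alone, the median of all genes with BRSK2 shifted to -0.10 and that of the members to 0.07, with 13 of 24 above 0. In 14 of the 24, BRSK2 replicates 2 and 3 both lay above all 4 controls (16.8% of all tested genes did so), but all 3 BRSK2 libraries did so in 0 (9.09% of all). All 3 BRSK1 libraries lay above the controls in 7 of 24 (9.93% of all): GAS5, MIR17HG, SNHG1, SNHG16, SNHG4, SNHG7 and TAF1D.

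**Figure D2:**
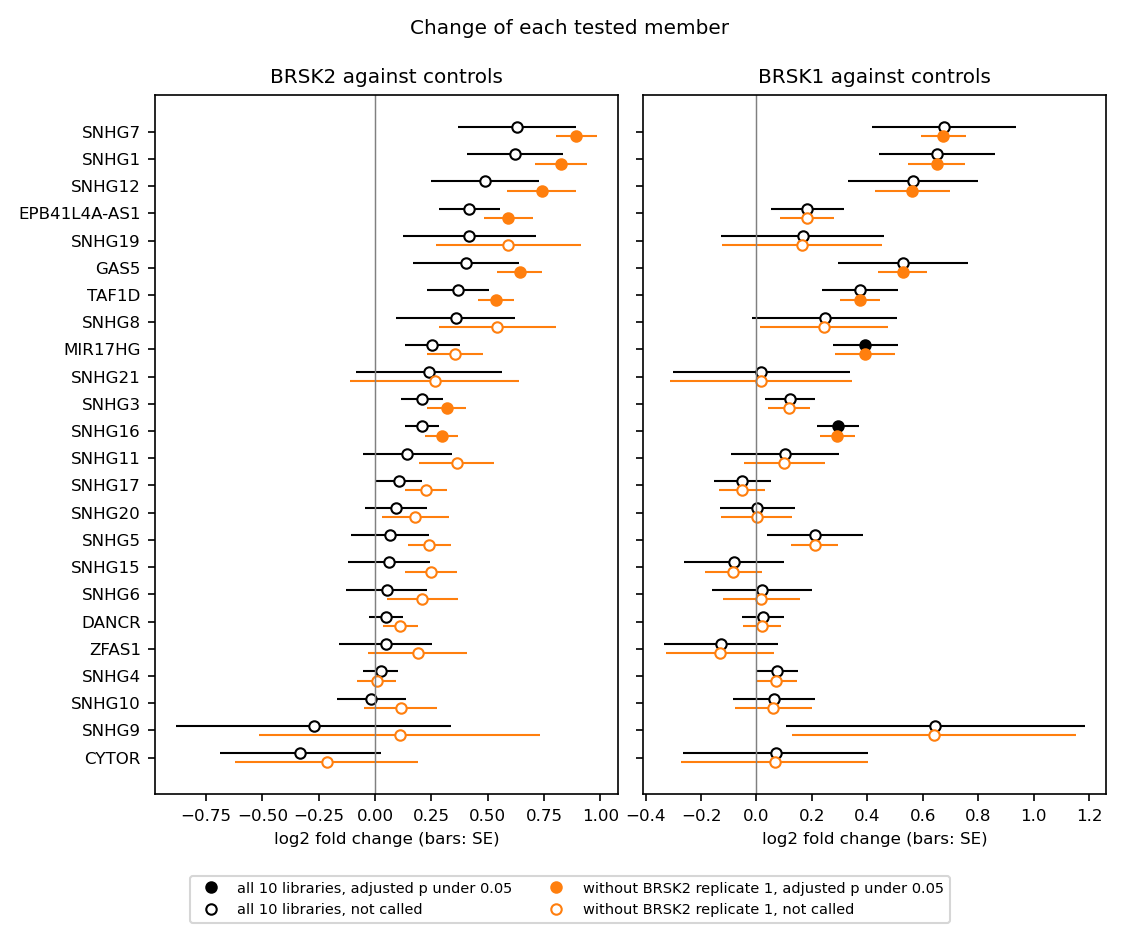
Log2 fold change with its SE (bars) of each tested member with BRSK2 (left) and BRSK1 (right) against the controls, with all 10 libraries (black) and without BRSK2 replicate 1 (orange); filled points have an adjusted p under 0.05. With all libraries 0 members are filled for BRSK2 and 2 for BRSK1, and without BRSK2 replicate 1 these are 8 and 7.

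The kinases could not be told apart in any member. In BRSK2 against BRSK1, 0 of 24 members passed in edgeR, 0 had an unadjusted p under 0.05, and DESeq2 and limma-voom called 0, beside 0.348% of all genes called in either direction. The median difference was 0.01, with 12 of 24 members above 0. Without BRSK2 replicate 1 the median was 0.18, with 20 of 24 above 0 and 5 at an unadjusted p under 0.05, and again 0 passed. Between the controls, hcRED against Mock, 0 of 24 passed in edgeR (0.0295% of all genes did). With the replicate number as a block, 4 passed (2.56% of all genes). Without the block, 1 had an unadjusted p under 0.05 (SNHG12), and DESeq2 and limma-voom called 0. The median there was 0.08 and turned to -0.10 without Mock replicate 3, or to 0.30 without Mock replicate 2.

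Members stood low or high together in single libraries. As the median over the 24 tested members of log2 CPM minus the control mean, BRSK2 replicates 1, 2 and 3 stood at -0.10, 0.33 and 0.23, BRSK1 at 0.09, 0.32 and 0.17, hcRED replicates 1 and 3 at 0.01 and 0.08, and Mock replicates 2 and 3 at 0.13 and -0.22. BRSK2 replicate 1 and Mock replicate 3 were thus the low libraries, and the medians over all genes were near 0 (0.01 for BRSK2 replicate 1). BRSK2 replicate 1 was the lowest of its group in 22 of the 24 members, beside 38.2% of all tested genes. BRSK1 replicate 1 was the lowest of its group in 17 of 24 (32.4% of all), and hcRED replicate 1 was the lower of its pair in 15 of 24 (49.95% of all). Replicate 1 was thus the lowest for most members in each of the groups that have one. Mock replicate 3 was the lower of its pair in 23 of 24 (49.1% of all genes) and the lowest of all 10 libraries in 10 (13.5% of all). BRSK2 replicate 1 and hcRED replicate 1 were each the lowest of the 10 libraries in 5 of the 24 (11.6% and 7.76% of all). Summed over members, the level was 647, 963 and 946 CPM with BRSK2, 766, 927 and 901 with BRSK1, 713 and 767 with hcRED, and 758 and 629 in Mock. Total counts were 18995616 for BRSK2 replicate 1, the second smallest of the 10, and 20029269 for Mock replicate 3, and the part of depth was not tested.

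**Figure D3:**
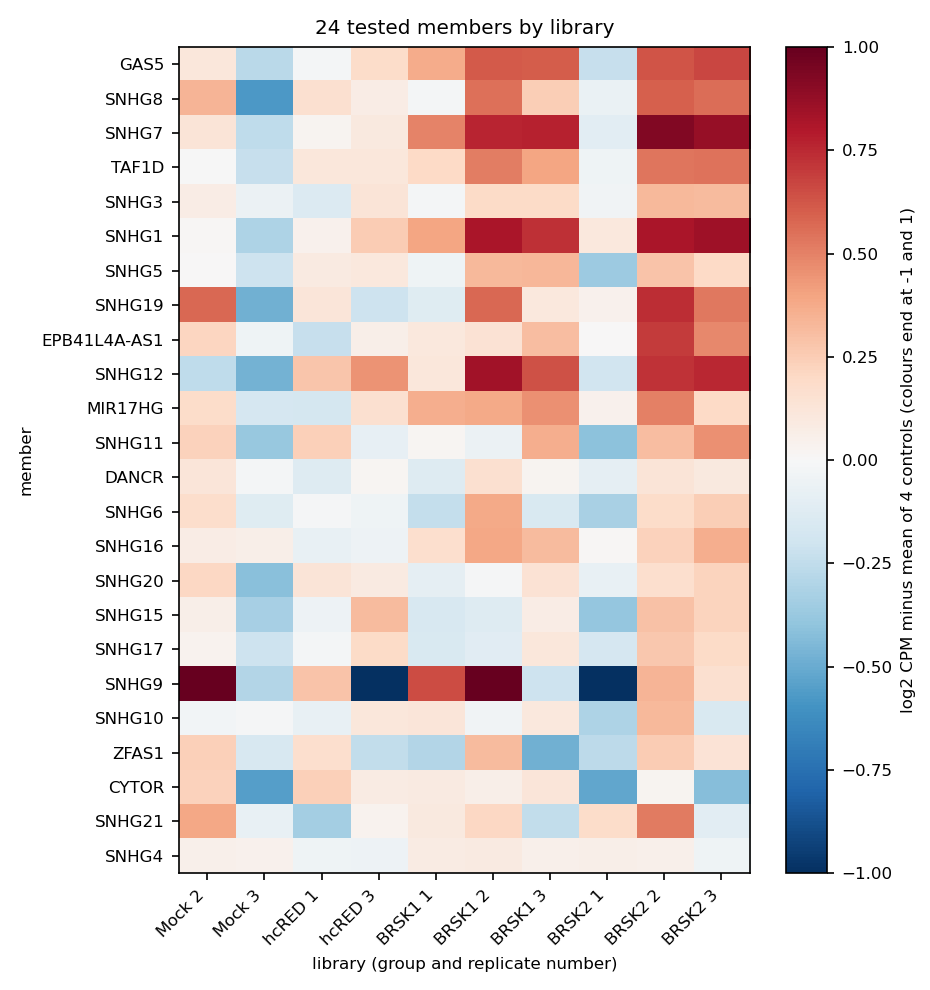
Log2 CPM minus the mean of the 4 controls for the 24 tested members (lines, ordered by their correlation with the mean of the other members) in the 10 libraries (columns); colours end at -1 and 1. The columns of BRSK2 replicate 1 and Mock replicate 3 are mostly blue, with medians of -0.10 and -0.22, while few members lie below 0 in BRSK2 replicates 2 and 3 (0 and 4 of 24), BRSK1 replicates 2 and 3 (5 and 4) and Mock replicate 2 (3).

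The members varied together over the 10 libraries, which share groups, so that correlations are a description only. Of 276 pairs of tested members, 261 had a Pearson correlation above 0, with a median of 0.53. Pairs of other genes were not counted in this way, so whether these values are unusual was not tested. GAS5 and SNHG8 (both 0.91), SNHG7 (0.90) and TAF1D (0.89) followed the mean of the other members most closely, and SNHG4 (0.03), SNHG21 (0.34), CYTOR (0.39) and ZFAS1 (0.45) least. The 5 genes outside the list whose log2 CPM was most like the members' mean were NIFK, a nucleolar protein that binds Ki-67 (0.97), the ribosomal proteins RPL10 (0.96) and RPLP2 (0.95), the splicing factor SRSF4 (0.96) and NPRL2, part of the GATOR1 complex that restrains mTORC1 (0.95). None of these 5 passed the test with either kinase (log2 fold changes of 0.07 to 0.14 with BRSK2 and 0.11 to 0.21 with BRSK1).

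The protein-coding hosts of snoRNAs outside the ribosomal proteins moved in both directions. Over all genes, 7.82% were called in either direction with BRSK2 and 6.43% with BRSK1. Of 18 tested, 2 rose with BRSK2 (PABPC4, a poly(A)-binding protein, 0.26 ± 0.05, and the elongation factor EEF2, 0.21 ± 0.07) and 2 fell (the chaperone HSPA8, -0.31 ± 0.07, and AP1G1, a clathrin adaptor subunit, -0.23 ± 0.06), with a median of 0.00. With BRSK1, 1 rose (the nuclear import receptor IPO7, 0.19 ± 0.06) and 1 fell (HSPA8, -0.21 ± 0.07), with a median of -0.07. The counts without BRSK2 replicate 1 were 4 higher and 3 lower with BRSK2 (13.1% of all genes called in either direction), and 2 higher and 2 lower with BRSK1 (10.4%). EIF4A2, a translation initiation helicase and host, was outside the rule for naming and was chosen after its values were seen. It stood at 109.1, 175 and 182 CPM with BRSK2, 148, 179 and 175 with BRSK1, 100.1 and 110.3 with hcRED, and 104 and 83.8 in Mock, so that BRSK2 replicate 1 was again among the controls and the other 5 kinase libraries above them. BRSK2 gave a change of 0.65 ± 0.20 (adjusted p = 0.11), BRSK1 one of 0.75 ± 0.19 (adjusted p = 0.0797), and without BRSK2 replicate 1 these were 0.85 ± 0.09 (adjusted p = 1.22e-05) and 0.75 ± 0.08 (adjusted p = 2.96e-05).

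Of the factors of NMD and the exon junction complex, 20 were tested, and 1 fell with BRSK2: PNRC2, which links UPF1 to decapping, at -0.35 ± 0.08 (adjusted p = 0.0061). With BRSK2, 11 of the 20 had an unadjusted p under 0.05 in edgeR (6 of them lower). DESeq2 called 3 with BRSK2 (8.07% of all genes) and limma-voom 1 (6.36%). The list's median was -0.07 with BRSK2 and -0.09 with BRSK1. With BRSK1, 0 of 20 passed in edgeR, DESeq2 or limma-voom, and in edgeR 7 had an unadjusted p under 0.05 (5 of them lower). No share of all genes was counted at the unadjusted level, so neither unadjusted count can be read as particular to this list. Without BRSK2 replicate 1, 3 fell with BRSK2 (PNRC2, SMG1 and DHX34) and 0 rose. Of 19 protein-coding genes known for NMD-sensitive transcripts, 1 rose with BRSK2 (MAP3K14, the NF-kB-inducing kinase, 0.62 ± 0.12) and 1 fell (the cystine transporter SLC7A11, -0.55 ± 0.09). With BRSK1, 0 rose and 2 fell (SLC7A11, -0.57 ± 0.09, and the co-chaperone BAG1, -0.22 ± 0.06). The medians were 0.08 and 0.03. Once BRSK2 replicate 1 was left out, 5 of the 19 rose with BRSK2 (ATF3, ATF4, DDIT3, MAP3K14 and TBL2) and 1 fell (SLC7A11). In that fit 2 rose with BRSK1 (ATF3 and MAP3K14) and 2 fell (SLC7A11 and BAG1), beside 13.1% of all genes called in either direction with BRSK2 and 10.4% with BRSK1. ATF3, ATF4 and DDIT3 encode transcription factors of the integrated stress response.

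Of the 19 proteins that form or assemble snoRNPs, NOP58, a core protein of box C/D particles, fell with BRSK2 in edgeR (-0.18 ± 0.06, adjusted p = 0.0449). With BRSK1, 0 passed in edgeR or limma-voom, and DESeq2 called 1 (6.81% of all genes). In edgeR 5 had an unadjusted p under 0.05 with BRSK1, all lower. No share of all genes was counted at that level, so this count cannot be read as particular to the list. The medians were -0.10 and -0.09. NOP58 did not pass with BRSK2 without its replicate 1 (adjusted p = 0.0919). In that fit 2 others fell (SHQ1 and RPAP3) and NOP56 rose, beside 13.1% of all genes called in either direction. Among 16 tested long noncoding RNAs that are not snoRNA hosts, the medians were -0.02 with BRSK2 and 0.08 with BRSK1. NORAD, which binds PUMILIO proteins, fell with both kinases (-0.29 ± 0.07 and -0.24 ± 0.07), CRNDE rose with BRSK1 (0.31 ± 0.09), and LINC00667 rose with BRSK2 from a mean level of 0.35 CPM (2.28 ± 0.64). Without BRSK2 replicate 1, 3 of the 16 rose and 1 fell with each kinase. In that fit 13.1% of all genes were called in either direction with BRSK2 and 10.4% with BRSK1. The 5 lists are described by their counts and medians, and no difference between them and the members was tested. NOP56 and DKC1 stand both among the protein-coding hosts and among the snoRNP proteins, so those lists are not independent.

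**Figure D4:**
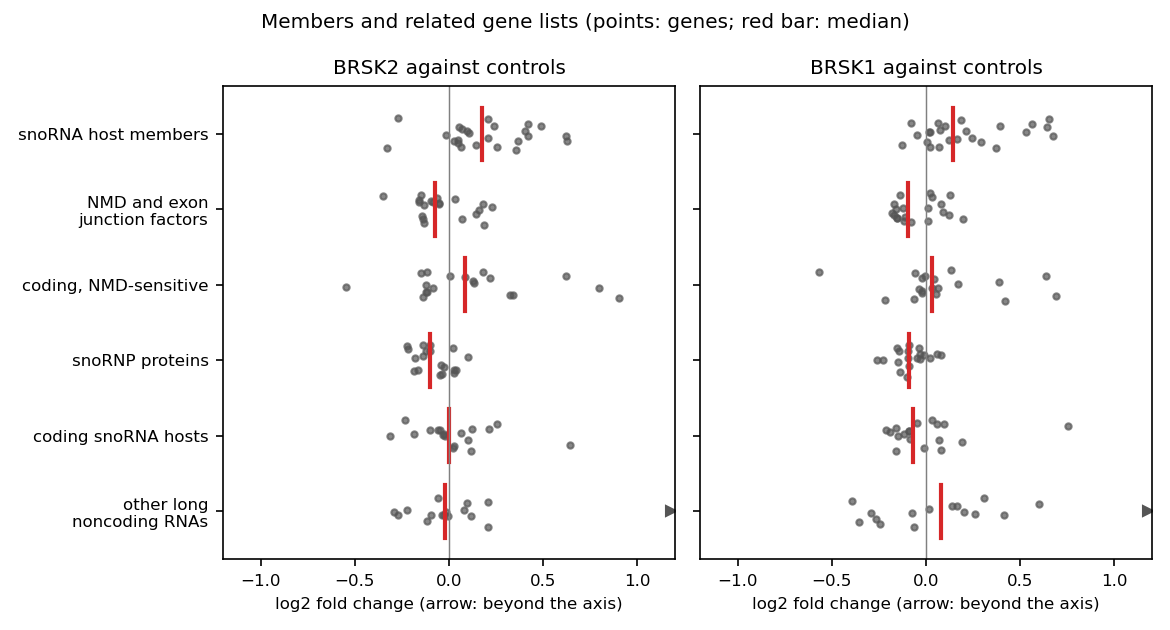
Log2 fold change of every tested gene (points, spread vertically at random) of the members and of 5 related lists with BRSK2 (left) and BRSK1 (right), with the list median as a red bar; arrows mark genes beyond the axis. The members' medians are 0.18 and 0.14, while those of the other lists lie between -0.10 and 0.08.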

How the data were processed

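RNA of 10 HEK293T libraries was grouped by the genotype in the labels. The authors deposited raw read counts per gene in 2 tables, joined on the gene ID after a check that the control columns were equal (0 differences), with no unused sample column (0). They also deposited log2 CPM values of listed genes (not used here) and tables with log2 fold changes, p-values and adjusted p-values, per the file headers; limma's deposited scores were not used. The submitters' processing notes name STAR, edgeR, limma and hg38, and how reads were counted (tool, strand, annotation) is not given in the sources used here.

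One fit of 4 group means over all 10 libraries used edgeR 4.0.16 (R 4.3.3): TMM factors, filterByExpr (minimum count 10, minimum total 15) and robust glmQLFit and glmQLFTest, with Benjamini-Hochberg adjustment over 16936 genes and a threshold of 0.05. Each SE was taken from F, as |log2 fold change| / sqrt(F). Controls are the mean of the hcRED and Mock group means. The steps were tested on simulated data. The members, the 5 related lists and the comparison without BRSK2 replicate 1 were chosen with earlier results of these data known. Values per library are given for members called with all libraries, without BRSK2 replicate 1 or by DESeq2, for the 6 with the highest CPM, and for the 7 members with no SNHG symbol, and up to 3 genes of each related list are named, with further genes where a count is explained. The alternatives were RLE factors, library totals, scaling without BRSK1 and BRSK2, no filter, 1 CPM in 3 libraries, a block on the replicate number, DESeq2 1.42.0, limma-voom (limma 3.58.1), single controls, no robust estimation, and leaving out each library. Removal of each library's GC trend was added after the data were seen. Where a group kept a single library, its spread was taken to equal that of the remaining groups. Another 7 genes carry an SNHG symbol only today and were not counted as members, since the rule was read on the deposited symbols and CYTOR is named in it; 5 of the 7 were tested and 0 called for either kinase, with or without BRSK2 replicate 1. For the list of NMD factors, the calls with BRSK1 in the fit without BRSK2 replicate 1 are not reported here.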

Additional observations from a re-analysis of the deposited data

How the results depend on the processing

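Called members numbered 0 of 24 for BRSK2, 2 for BRSK1 and 0 for hcRED against Mock with all libraries. For BRSK2 the count was 1 with DESeq2, 1 with limma-voom, 2 without robust estimation and 3 with no filter, and leaving out single libraries gave 0 to 8 (8 without BRSK2 replicate 1, 1 without Mock replicate 2). Over all alternatives the share of all genes called in either direction ran from 2.05% to 17.7% for BRSK2 and from 0.785% to 11.8% for BRSK1, and the counts of members are to be read against it. For BRSK1 it was 1 by library totals, 1 with the GC trend removed, 4 with no filter, 4 without robust estimation, 3 with DESeq2, 5 with limma-voom and 0 against hcRED alone or Mock alone, and 0 to 7 with single libraries left out (7 without BRSK2 replicate 1). For hcRED against Mock it was 1 with no filter (SNHG12). BRSK2 against BRSK1 gave 0 under every alternative run. Over single members, no called value changed sign; for BRSK1, 18 values lost and 18 gained the threshold, and for BRSK2 22 gained it. The causes of these shifts were not tested.

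With the replicate number as a block, 6 members were called for BRSK2, 5 for BRSK1 and 4 for hcRED against Mock (SNHG1, SNHG5, SNHG12 and TAF1D), while all genes called rose from 1325 to 2153 for BRSK2 from 1089 to 1999 for BRSK1 and from 5 to 433 (2.56%) for hcRED against Mock. Deviations of same-numbered libraries from their group means correlated at -0.05 to 0.16 over genes (12 pairs, median 0.05). For other numbers this was -0.14 to 0.10 (median -0.06). In groups of 2 libraries the deviations mirror each other, so the pairs are not independent. The check therefore cannot decide whether same-numbered libraries share an effect. The main fit gave the replicate number no role and treated the libraries of a group as independent. Low counts limit SNHG9, SNHG21 and CYTOR, whose SE reached 0.32 or more.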
